A study of Mus musculus with 18 samples.

Results

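Expression of the genes that present antigen on MHC molecules and of the genes that sense, transmit and carry out the interferon response was followed in mouse small intestinal organoids treated with adrenergic agonists. The 43 members were chosen by name: class I and class II MHC chains, the machinery that loads them, interferon receptors, interferon-activated transcription factors, interferon target genes and nucleic acid sensors. All 43 were found among the 55487 genes of the count table, and 36 of them passed the filter on low counts that left 15247 genes for testing. The members lie on 16 chromosomes, and 16 of them lie on chromosome 17, between the positions 33915899 and 36190287 of the build GRCm38, the stretch that holds the mouse MHC.

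The organoids were grown from wild-type small intestine and, after 4 passages, were treated for 4 days. Norepinephrine, the sympathetic transmitter that acts on α- and β-adrenergic receptors, was given at 1 µM (n = 5) and was compared with its own vehicle, HCl (n = 4). UK14,304, an agonist selective for α2-adrenergic receptors, was given at 1 µM (n = 5) and was compared with its vehicle, DMSO (n = 4). The labels number the samples from 1 to 5 within a group, the vehicles from 1 to 4, and do not say whether a number stands for an animal, a culture line or a day, so p-values measure only the spread between these samples. Organoids are cultures of epithelium and lack the immune, stromal and nerve cells of the gut wall.

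Class I MHC molecules are carried by nearly all nucleated cells and show peptides made in the cell to CD8+ T cells. Their heavy chain pairs with β2-microglobulin (B2m), and their peptides are cleaved by the immunoproteasome (Psmb8, Psmb9, Psmb10), pumped into the endoplasmic reticulum by Tap1 and Tap2, placed on the heavy chain with the help of tapasin (Tapbp) and trimmed by Erap1. Class II molecules show peptides from outside the cell to CD4+ T cells and are found mainly on immune cells, although intestinal epithelium can make them when interferon gamma switches on their transactivator, Ciita. Type I and type III interferons act through a complex holding Stat2 and Irf9 that binds the interferon-stimulated response element (ISRE) in target promoters, whereas interferon gamma acts at the gamma-activated site (GAS).

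The 18 libraries held between 21866149 and 27850373 counts, and in 7 of them over 1% of the counts fell on a ribosomal RNA gene. These were HCl sample 4, DMSO samples 1, 2 and 3, norepinephrine samples 4 and 5, and UK14,304 sample 1. The share was 2.41%, 2.61% and 3.06% in DMSO samples 1, 2 and 3, so it was spread unevenly between DMSO and UK14,304. The norepinephrine and UK14,304 libraries numbered 4 stood apart. After the groups and numbers were fitted, the SD of their residuals over all genes was 0.298 and 0.279 on the log2 scale, against 0.205 to 0.235 in the other 16 libraries. Comparisons are therefore given with and without them. Epithelial markers (Epcam, Cdh1, Vil1 and keratins, 6 genes) summed to between 6942 and 7887 counts-per-million (CPM) in every library. Immune cell markers (14 genes) summed to between 3.66 and 5.91 CPM, and Adgre1 and Nkg7 had no read in any library. Stromal and endothelial markers (9 genes) summed to between 2.71 and 4.42 CPM, with Dcn at 0 throughout.

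The class I chains H2-K1, H2-D1, H2-Q2 and B2m were among the highest members, and class II chains were low. Levels of different genes are compared here in RPKM, which is CPM divided by the exon length of the gene in kilobases, as medians with the range over the 8 vehicle libraries. B2m was highest at 389 RPKM (348 to 419), above 99.57% of the genes tested. The heavy chain H2-K1 followed at 184 RPKM (149 to 198), and these ranges did not overlap. Ifngr1, the ligand-binding chain of the interferon gamma receptor, was next at 94.5 RPKM, followed by the heavy chains H2-D1 at 81.4 RPKM and H2-Q2 at 67.8 RPKM.

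In all, 12 members had a vehicle median above 10 RPKM, 15 lay between 1 and 10 RPKM and 16 lay under 1 RPKM. Psmb10 at 31.6 RPKM was the most abundant of the immunoproteasome subunits, with Psmb9 at 2.20 RPKM and Psmb8 at 1.85 RPKM. Erap1 (22.6 RPKM) and Tapbp (20.1 RPKM) were likewise above the peptide pump subunits Tap1 (2.69 RPKM) and Tap2 (1.96 RPKM). Among receptors, Ifnar1, a chain of the type I interferon receptor, stood at 12.7 RPKM and Ifnlr1, the specific chain of the type III receptor, at 5.41 RPKM. Of the transcription factors, Irf1 reached 14.6 RPKM, Stat2 6.95 RPKM, Irf9 3.56 RPKM and Irf7 2.97 RPKM.

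**Figure D1:**
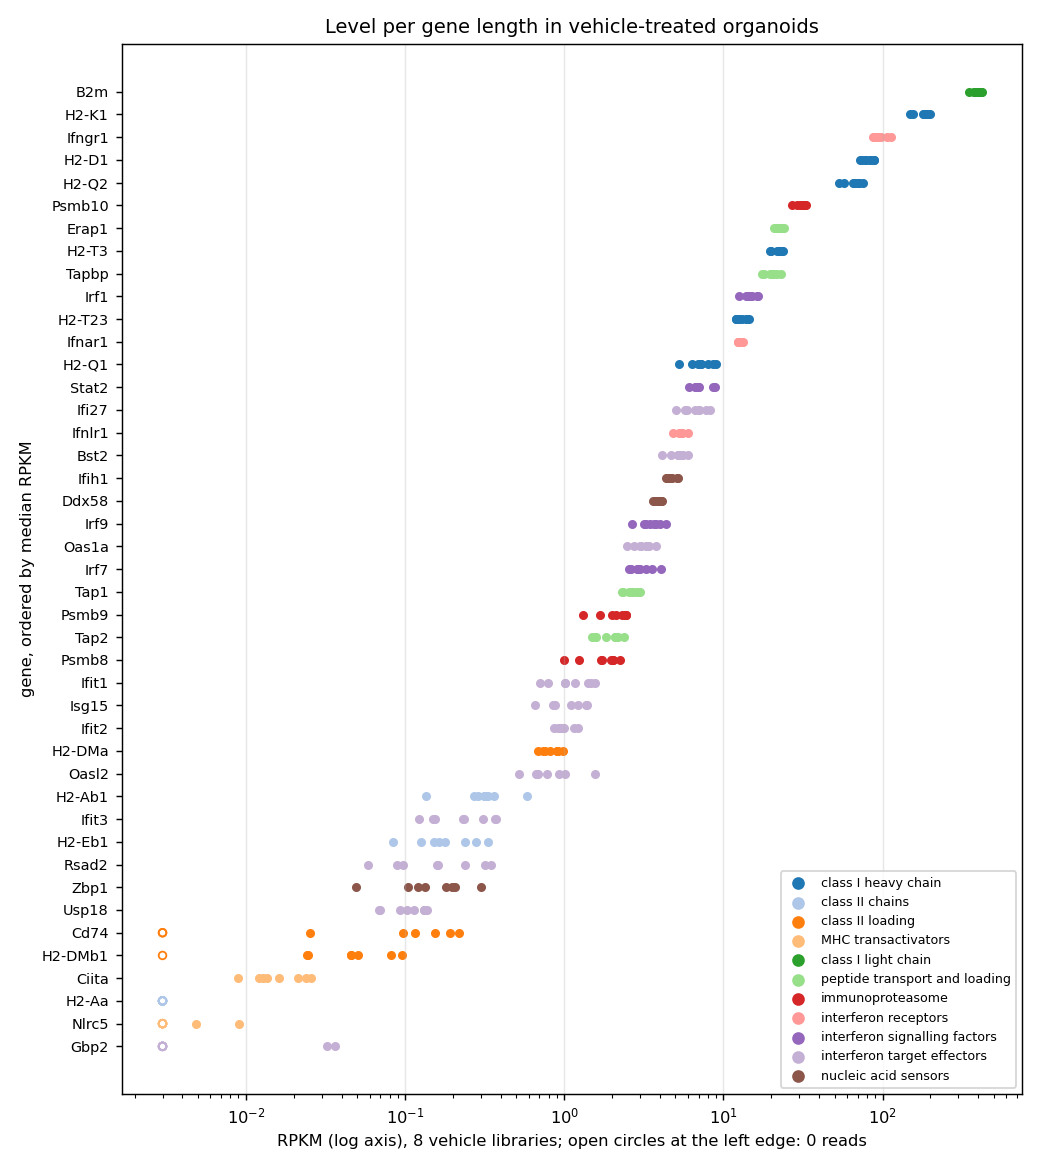
Level of each member in the organoids, as RPKM on a log axis, with a dot for each of the 8 vehicle libraries, ordered by median from highest to lowest and colored by role, and with open circles at the left edge for libraries with 0 reads. B2m and H2-K1 lead with 389 and 184 RPKM, and Ciita, H2-Aa, Nlrc5 and Gbp2 have the lowest medians.

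The interferon target genes were expressed at low levels, and few reads fell on interferon genes. Ifi27, a small interferon-induced protein, was the highest of the targets at 6.84 RPKM, and Bst2, which tethers budding virus particles, stood at 5.24 RPKM. Ifit1, which binds foreign RNA ends, was at 1.10 RPKM, the ubiquitin-like protein Isg15 at 0.995 RPKM and the antiviral enzyme Rsad2 at 0.160 RPKM. Of 10 interferon genes listed, 8 had no read in any of the 18 libraries, which allows each of them up to 3 counts per library, or 0.108 to 0.137 CPM. Ifnk had 29 reads in all libraries together and Ifne had 1.

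The 7 members left out of the tests were low in every group. The class II chain H2-Aa had 2 reads over the 18 libraries and none in 16 of them. Nlrc5, the transactivator of class I genes, had 11 reads, and the GTPase Gbp2 had 10. Cd74, the invariant chain that escorts class II molecules, had 59 reads, with 0 to 8 per library. H2-DMb1 had 28 reads and Usp18, which removes Isg15 from proteins, had 127. Ciita had 2, 5, 3 and 3 reads with HCl and 3, 1, 6, 9 and 4 with norepinephrine. It had 4, 5, 3 and 6 reads with DMSO and 4, 6, 4, 4 and 4 with UK14,304. No fold change is given for these 7 members, which did not pass the filter.

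Norepinephrine against HCl gave no call among the members. With the replicate number as a block, edgeR's quasi-likelihood test with Benjamini-Hochberg adjustment called 16 of 15247 genes (0.105%), of which 14 fell (0.0918%) and 2 rose (0.0131%), and 0 of 36 members. At an unadjusted p under 0.05 there were 6 members (16.7%) against 8.4% of all genes, and DESeq2 also called 0 members. The 6 were Tap2, Ifih1, Ifngr1, Irf7, Stat2 and H2-T23. The estimate lay below 0 for 28 of 36 members (77.8%) and for 52.7% of all genes, with a median log2 fold change of -0.07 over the members and -0.01 over all genes. The estimates of all members come from the same libraries. The count of genes was 10 without HCl sample 1, 27 without UK14,304 sample 4 and 2529 without norepinephrine sample 4.

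The largest estimates were those of genes with few reads. H2-Eb1, a class II β chain, had 0.298, 0.320, 0.348 and 0.163 CPM with HCl and 0.493, 0.413, 0.530, 0.513 and 0.156 CPM with norepinephrine. It was higher with the agonist in each of the 4 pairs, while the unpaired sample 5 was the lowest of all 9, so that the groups overlapped. These values rest on 4 to 13 reads, and the log2 fold change of 0.77 (SE 0.41) had an edgeR adjusted p of 0.597. Ifit3, another RNA-binding target, had 0.213, 0.640, 0.261 and 0.650 CPM with HCl and 0.329, 0.230, 0.407, 0.197 and 0.156 CPM with norepinephrine. Samples 2 and 4 were high in the vehicle and not with the agonist, and the log2 fold change was -0.62 (SE 0.39, edgeR adjusted p = 0.62).

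Isg15 was lower in 4 of 4 pairs. It measured 0.596, 0.960, 0.609 and 0.854 CPM with HCl and 0.576, 0.597, 0.489, 0.513 and 0.390 CPM with norepinephrine. A single norepinephrine sample, number 2, reached into the vehicle range, and the log2 fold change of -0.47 (SE 0.25) had an edgeR adjusted p of 0.592. Zbp1, a sensor of Z-form nucleic acids, measured 0.468, 0.640, 0.174 and 0.732 CPM with HCl and 0.247, 0.505, 0.326, 0.355 and 0.468 CPM with norepinephrine. Here the groups overlapped widely (log2 fold change -0.60, SE 0.35, edgeR adjusted p = 0.616). Lower in 4 of 4 pairs were 5 of 36 members (H2-DMa, Tap2, Ifngr1, Isg15 and Bst2), against 8.26% of all genes, and higher in 4 of 4 were H2-Eb1 and Ifnar1, against 5.33%.

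With UK14,304 against DMSO Stat2 fell and no other member passed. The test called 186 of 15247 genes (1.22%), of which 159 fell (1.04%) and 27 rose, and 1 of 36 members. DESeq2 also called 1 member. The count of genes was 68 without DMSO sample 2, 95 without DMSO sample 3, 91 without UK14,304 sample 3, 119 without UK14,304 sample 2 and 1225 without norepinephrine sample 4, and Stat2 was called in each of these fits. At an unadjusted p under 0.05 there were 8 members (22.2%) against 14.8% of all genes. Estimates below 0 were found for 28 of 36 members (77.8%) and 51.3% of all genes, with a median log2 fold change of -0.09 over the members and -0.00 over all genes. Lower in 4 of 4 pairs were 10 of 36 members, among them H2-K1, H2-D1, H2-Q1, Ifngr1, Irf7, Ifit1 and Zbp1, against 15.5% of all genes. Higher in 4 of 4 were Erap1 and Ifih1, against 14.0% of all genes. No member had an agonist group lying wholly above or below its vehicle group, for either agonist. Over all genes this occurred in 0.78% (lower) and 0.643% (higher) with norepinephrine and in 1.78% (lower) and 1.72% (higher) with UK14,304.

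Stat2 encodes a signal transducer of type I and type III interferon signaling. The gene (ENSMUSG00000040033) lies on the plus strand of chromosome 10, from 128270559 to 128292849 of GRCm38. None of the 4348 windows of 50 bases, the read length, in its longest transcript occurs in another gene. Windows here and below come from the longest transcript of a gene. The exons counted for Stat2 span 5926 bases, so part of that sequence was not checked. With DMSO Stat2 measured 41.2, 51.0, 35.9 and 41.1 CPM (42.3 ± 6.33, SD, n = 4). With UK14,304 it measured 32.4, 36.4, 26.5, 32.2 and 36.7 CPM (32.8 ± 4.14, SD, n = 5). Agonist samples 1 to 4 were each below the vehicle sample of their number, and sample 5 has none, but the groups overlapped, because DMSO sample 3 was lower than UK14,304 samples 2 and 5. In the fit with the block Stat2 fell by 0.39 on the log2 scale (SE 0.06, 95% interval -0.51 to -0.26). This was a change of -23.5%, with an edgeR adjusted p of 0.00303. With DESeq2 the adjusted p was 9.22e-06. Without the block the log2 fold change was -0.36 and its adjusted p in edgeR rose to 0.31. The call was also missed without replicate number 2 (adjusted p = 0.0625) and without replicate number 3 (adjusted p = 0.0503), and it was kept in 29 of the 32 alternative settings. Over all 32 the adjusted p ran from 5.29e-07 to 0.31. With norepinephrine Stat2 measured 37.5, 42.2, 37.3, 42.5 and 40.3 CPM against 39.7, 52.5, 39.5 and 41.8 CPM with HCl. It was lower in 3 of 4 pairs and higher in sample 4, and the log2 fold change of -0.13 (SE 0.06) had an edgeR adjusted p of 0.589.

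The other factors of the pathway did not pass. Irf7, which amplifies the type I response, had log2 fold changes of -0.24 (SE 0.11) with UK14,304 and -0.24 (SE 0.11) with norepinephrine, with edgeR adjusted p of 0.316 and 0.589. Irf9, the DNA-binding partner of Stat2, had -0.10 and -0.05. Irf1, the factor most closely tied to interferon gamma, measured 57.7, 64.9, 49.6 and 60.0 CPM with DMSO and 59.5, 60.7, 49.3, 50.1 and 59.2 CPM with UK14,304. These values overlapped almost fully, and its log2 fold change was -0.06 with UK14,304 and 0.03 with norepinephrine.

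No interferon target effector among the members passed the adjusted threshold. The values that follow are those of the largest estimates. Ifit1 measured 2.09, 3.77, 2.7 and 3.94 CPM with DMSO and 1.50, 2.73, 1.90, 1.86 and 2.81 CPM with UK14,304. It was lower in 4 of 4 pairs, most in sample 4, and sample 5 and sample 2 lay within the vehicle range. The log2 fold change was -0.62 (SE 0.19, 95% interval -1.004 to -0.226) with an edgeR adjusted p of 0.133. Where only the UK14,304 and DMSO libraries were fitted, this adjusted p was 0.0420, and with a correction for GC content it was 0.0216. It was 0.0397 without the norepinephrine library numbered 4. Without both agonist libraries numbered 4 the log2 fold change was -0.50 with an edgeR adjusted p of 0.130, and DESeq2 on all libraries did not call Ifit1.

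Zbp1 measured 0.696, 1.05, 0.424 and 0.370 CPM with DMSO and 0.292, 0.431, 0.124, 0.341 and 0.692 CPM with UK14,304. It was lower in 4 of 4 pairs, and the unpaired sample 5 was nearly as high as DMSO sample 1 (log2 fold change -0.97, SE 0.32, edgeR adjusted p = 0.18). Rsad2 measured 0.387, 1.50, 0.424 and 1.03 CPM with DMSO and 0.622, 0.646, 0.372, 0.341 and 0.475 CPM with UK14,304. DMSO samples 2 and 4 were high and all other samples lay between 0.341 and 0.646 CPM (log2 fold change -0.69, SE 0.35, edgeR adjusted p = 0.37). Isg15 measured 0.619, 0.973, 0.463 and 0.781 CPM with DMSO and 0.622, 0.646, 0.206, 0.493 and 0.389 CPM with UK14,304. Sample 1 did not differ and the other pairs were lower (log2 fold change -0.50, SE 0.24, edgeR adjusted p = 0.347). Over the 9 interferon target effectors tested, the median log2 fold change was -0.24 with UK14,304, with 7 below 0, and -0.21 with norepinephrine, with 8 below 0. Bst2 had -0.18 with UK14,304 and -0.19 with norepinephrine, and Oasl2, of the oligoadenylate synthetase family, had -0.24 and -0.21. Oas1a, which makes the activator of the antiviral ribonuclease L, had 0.02 and -0.07, and Ifit2 had 0.05 and 0.19. The values of Oas1a and Ifit3 are uncertain, since 57.6% and 51.2% of their 50-base windows occur in another gene.

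**Figure D2:**
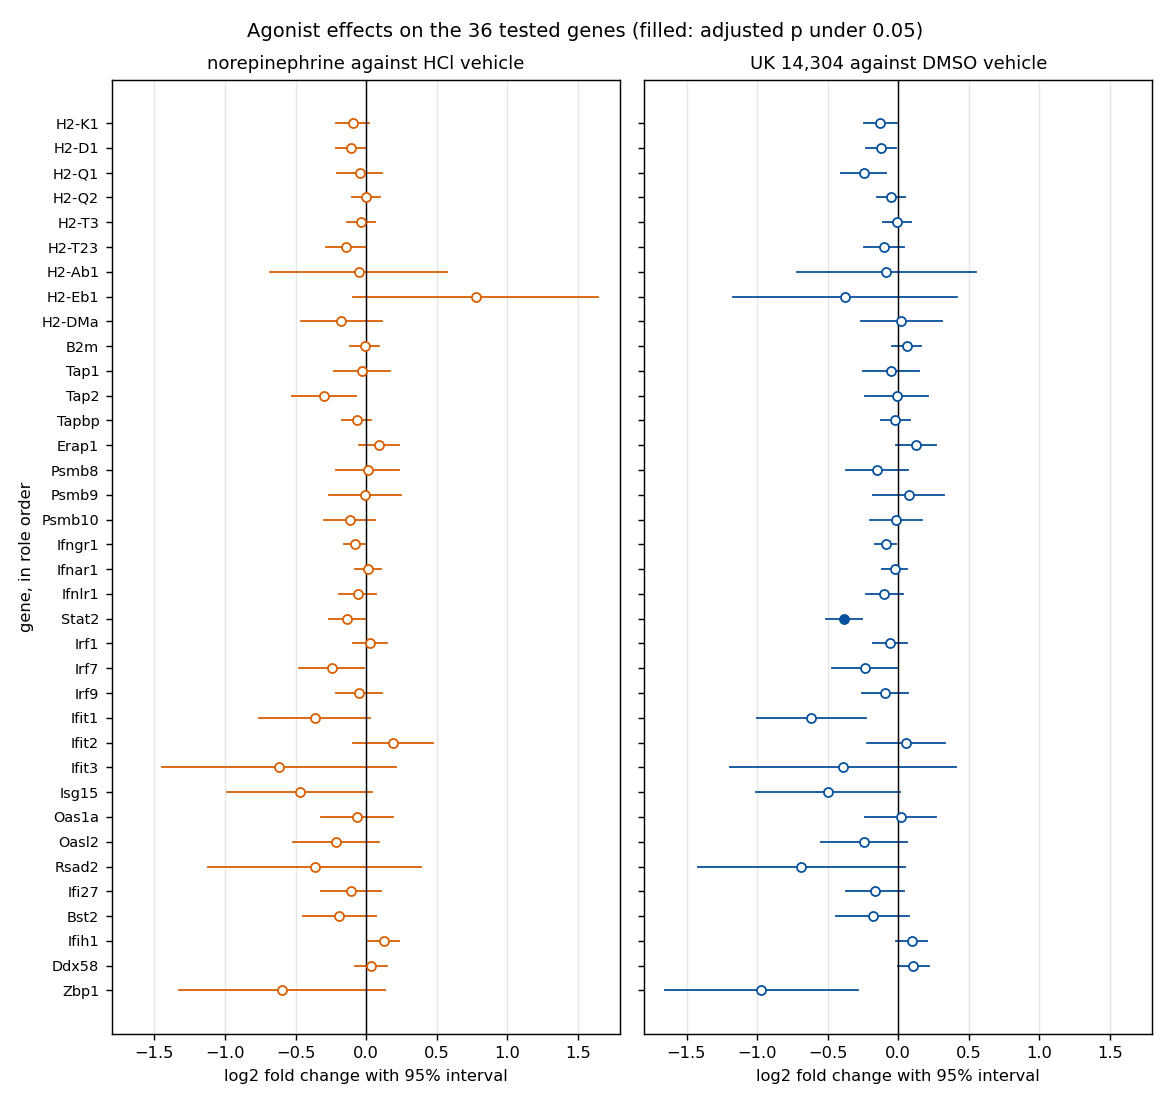
Log2 fold change of each tested member with its 95% interval, for norepinephrine against HCl and for UK14,304 against DMSO, from the edgeR fit with the replicate number as a block. Stat2 with UK14,304 (-0.39) is the member that passed the adjusted threshold, and the widest intervals belong to genes with few reads such as H2-Eb1 and Zbp1.

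Promoters are shown for Stat2, for the low targets Ifit1, Isg15 and Rsad2, and for B2m, the most abundant member, because they show the element through which the Stat2 complex acts. Each holds 300 bases, from 250 before to 50 after the RefSeq start site on GRCm38.p6, written 5′ to 3′ on the strand of the gene, at chr10:128270248-128270547 (plus strand) for Stat2, chr19:34640639-34640938 (plus) for Ifit1, chr4:156200769-156201068 (minus) for Isg15, chr12:26456403-26456702 (minus) for Rsad2 and chr2:122147437-122147736 (plus) for B2m. Capitals mark matches to the core of the ISRE, which was searched on either strand as GAAA, any 2 bases and GAAA.
Stat2: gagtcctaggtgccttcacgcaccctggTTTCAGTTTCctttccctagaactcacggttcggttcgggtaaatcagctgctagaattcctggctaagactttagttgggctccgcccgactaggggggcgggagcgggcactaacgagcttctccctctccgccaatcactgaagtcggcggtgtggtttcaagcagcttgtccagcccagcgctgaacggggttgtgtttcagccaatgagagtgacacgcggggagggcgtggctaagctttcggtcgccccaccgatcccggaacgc
Ifit1: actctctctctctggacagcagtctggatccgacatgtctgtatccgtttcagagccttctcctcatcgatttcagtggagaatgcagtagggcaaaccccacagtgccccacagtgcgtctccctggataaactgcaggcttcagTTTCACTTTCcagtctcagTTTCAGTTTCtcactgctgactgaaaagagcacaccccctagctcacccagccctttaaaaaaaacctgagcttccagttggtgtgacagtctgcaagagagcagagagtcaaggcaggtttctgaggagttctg
Isg15: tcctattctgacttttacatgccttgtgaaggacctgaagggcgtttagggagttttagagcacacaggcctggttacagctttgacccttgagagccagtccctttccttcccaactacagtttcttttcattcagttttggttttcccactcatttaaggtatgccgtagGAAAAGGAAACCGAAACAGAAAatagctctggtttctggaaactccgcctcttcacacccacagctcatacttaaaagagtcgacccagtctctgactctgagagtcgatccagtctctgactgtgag
Rsad2: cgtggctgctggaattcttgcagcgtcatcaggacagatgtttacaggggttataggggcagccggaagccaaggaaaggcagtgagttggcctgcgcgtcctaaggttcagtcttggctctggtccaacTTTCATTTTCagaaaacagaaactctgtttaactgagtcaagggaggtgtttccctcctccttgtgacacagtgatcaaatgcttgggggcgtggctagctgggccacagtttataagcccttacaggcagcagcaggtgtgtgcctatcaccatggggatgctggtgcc
B2m: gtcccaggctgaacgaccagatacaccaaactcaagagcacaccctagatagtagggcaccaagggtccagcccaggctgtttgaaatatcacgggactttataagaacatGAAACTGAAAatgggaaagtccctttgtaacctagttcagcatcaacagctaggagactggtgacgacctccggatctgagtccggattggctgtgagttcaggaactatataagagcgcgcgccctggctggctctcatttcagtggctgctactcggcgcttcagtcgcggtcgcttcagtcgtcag
The match in Stat2 spans -222 to -213 relative to the RefSeq start site, and Ifit1 holds a pair, at -104 to -95 and -85 to -76. For Stat2 the whole window lies before the gene start used for the counts, 128270559, so positions from that start differ. In Isg15, 3 matches overlap between -78 and -57. Of the 34 members with a promoter entry, 13 (38.2%) held the ISRE core, against 3.44% of all 32851 promoters, and 6 (17.6%) held the GAS, TTCNNNGAA, which is its own reverse complement, against 8.3%. No entry was found for H2-Q1, H2-Ab1, Cd74, Ciita, Nlrc5, Tap2, Ifi27, Usp18 and Zbp1. The 12 tested members with the ISRE core had a median log2 fold change of -0.14 with UK14,304, from -0.69 to 0.12, with 7 below 0, and the 19 tested members with an entry and no match had a median of -0.06, with 16 below 0. With norepinephrine the medians were -0.14 with the core, with 9 below 0, and -0.05 without it, with 14 below 0. B2m and Erap1, which hold the core, had positive estimates with UK14,304 (0.06 and 0.12).

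**Figure D3:**
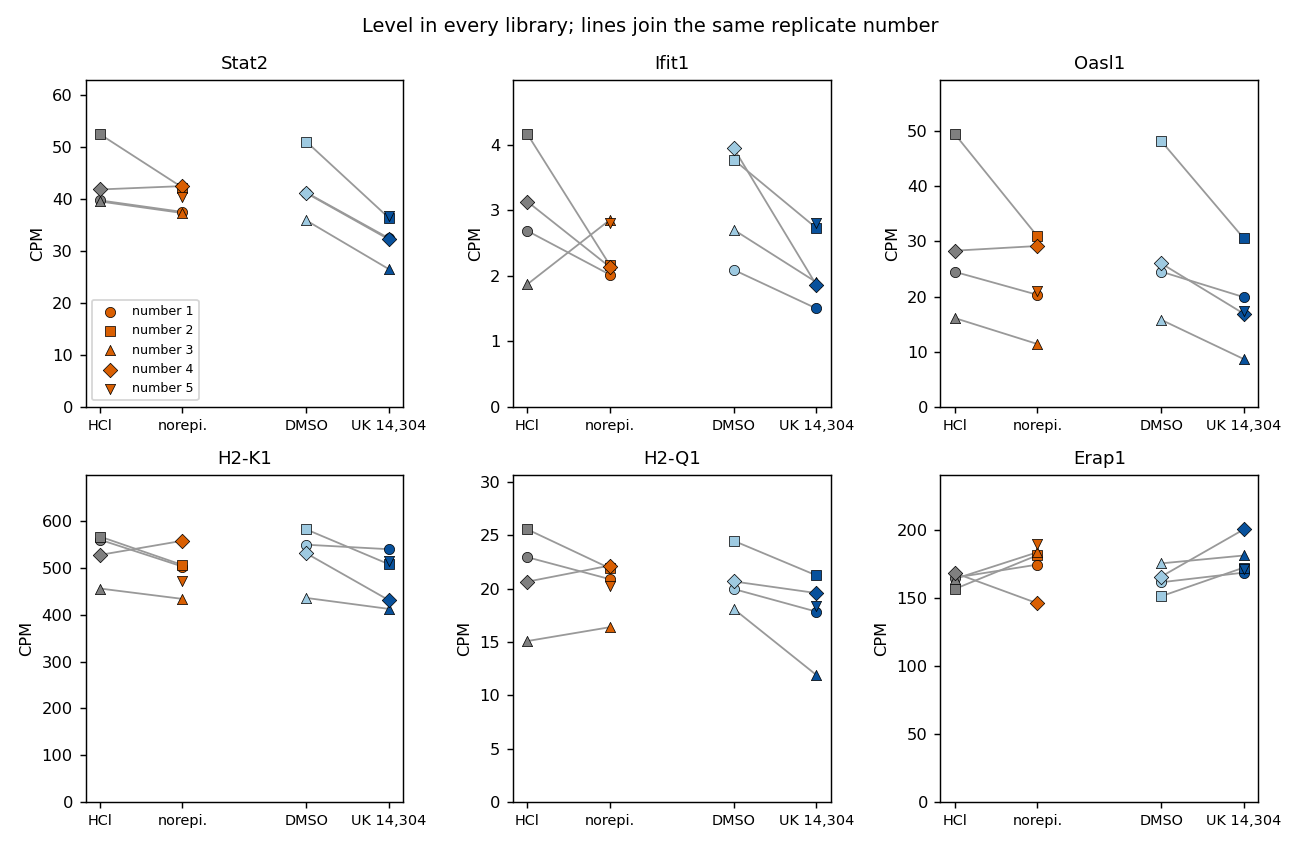
CPM of Stat2, Ifit1, H2-K1, H2-Q1, Erap1 and the wider interferon target Oasl1 in each library, with agonist and vehicle libraries of the same replicate number joined by a line. Stat2 with UK14,304 is lower in 4 of 4 pairs, with 26.5 to 36.7 CPM against 35.9 to 51.0 CPM with DMSO.

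Among the class I genes the estimates were small. H2-K1 measured 550.2, 583, 436 and 532 CPM with DMSO and 540.5, 508, 413, 432 and 515 CPM with UK14,304. It was lower in 4 of 4 pairs, with sample 3 the lowest of both groups, and the groups overlapped. Its log2 fold change was -0.13 (SE 0.06, edgeR adjusted p = 0.302). With HCl it measured 561, 568, 456 and 528 CPM and with norepinephrine 503, 507, 434, 559 and 472 CPM. Samples 1, 2 and 3 were lower and sample 4 was higher (log2 fold change -0.10, SE 0.06, edgeR adjusted p = 0.616). All 6 heavy chains had estimates below 0 with both agonists, with medians of -0.07 for norepinephrine and -0.11 for UK14,304, and 0 of 6 passed in either. The estimate for H2-Q2 with norepinephrine was -0.00 and turned positive without norepinephrine sample 4. The class I chains share stretches of sequence, with 8.11% of the 50-base windows of H2-K1, 14.3% of those of H2-D1 and 16.1% of those of H2-Q1 found in another gene, so reads can be divided among them in ways the counting decides.

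B2m, the shared light chain, measured 332, 338, 322 and 325 CPM with DMSO and 352, 348, 315, 377 and 322 CPM with UK14,304. Samples 1, 2 and 4 were higher and sample 3 was lower, with a log2 fold change of 0.06 (95% interval -0.04 to 0.16). With HCl it measured 358, 360.0, 299.5 and 347 CPM, and with norepinephrine 353, 341, 329, 313 and 348 CPM, a log2 fold change of -0.01 (95% interval -0.11 to 0.09). Erap1 measured 162, 151, 176 and 166 CPM with DMSO and 169, 172, 181, 200.5 and 172 CPM with UK14,304. It was higher in 4 of 4 pairs (log2 fold change 0.12, SE 0.07, edgeR adjusted p = 0.402). Exons of Erap1 overlap those of its neighbor Cast over 11.5% of their length, and no strand setting is recorded for the counting. The overlap with other genes is larger for Tapbp (29.0%), Irf1 (20.0%), Tap2 (18.5%) and Psmb8 (14.7%).

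Psmb10, the trypsin-like subunit of the immunoproteasome, measured 53.2, 54.8, 49.2 and 55.6 CPM with HCl and 47.8, 47.3, 44.5, 59.6 and 42.7 CPM with norepinephrine. Sample 4 was the highest of all 9 and the other agonist samples were lower than every vehicle sample. Its log2 fold change was -0.12 (edgeR adjusted p = 0.656), and with UK14,304 it was -0.02, from 56.0, 54.7, 46.1 and 51.5 CPM with DMSO to 58.4, 54.2, 47.7, 42.1 and 50.9 CPM. Sample 4 was here the lowest of the agonist group. No other subunit or loading gene passed in either comparison. The largest estimate was that of Tap2, with -0.30 for norepinephrine (edgeR adjusted p = 0.556) and -0.01 for UK14,304. Tap1 had -0.03 and -0.05, Tapbp -0.07 and -0.02, Psmb8 0.01 and -0.15, and Psmb9 -0.01 and 0.07.

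The class II genes that could be tested did not pass. H2-Ab1, a class II β chain, measured 0.851, 1.51, 0.348 and 0.935 CPM with HCl and 0.534, 0.872, 0.774, 1.22 and 0.507 CPM with norepinephrine. With DMSO it measured 0.735, 0.811, 0.694 and 0.822 CPM and with UK14,304 it measured 0.366, 1.40, 0.578, 0.645 and 0.432 CPM. Both agonist groups overlapped their vehicles, with log2 fold changes of -0.05 and -0.09. H2-DMa, a chain of the factor that exchanges class II peptides, measured 3.41, 3.15, 2.52 and 3.09 CPM with HCl and 2.67, 2.94, 2.24, 2.88 and 2.77 CPM with norepinephrine, lower in 4 of 4 pairs (log2 fold change -0.17). With UK14,304 its 2.34, 3.23, 3.14, 2.39 and 2.72 CPM stood on both sides of the 3.09, 2.80, 2.35 and 2.63 CPM with DMSO (log2 fold change 0.02). H2-Eb1 had 0.464, 0.649, 0.540 and 0.246 CPM with DMSO and 0.622, 0.323, 0.0826, 0.379 and 0.173 CPM with UK14,304. It was lower in samples 2 and 3 and higher in samples 1 and 4, with a log2 fold change of -0.38 (SE 0.38).

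Ifngr1 and Ifih1 had small estimates of the same sign with both agonists. Ifngr1 measured 272, 319.8, 249 and 279.9 CPM with HCl and 271, 283, 241, 254 and 275 CPM with norepinephrine. With DMSO it measured 267, 302, 253 and 264 CPM and with UK14,304 it measured 249, 286, 233, 259.5 and 251 CPM. It was lower in 4 of 4 pairs in both comparisons, with log2 fold changes of -0.08 and -0.09 and edgeR adjusted p of 0.585 and 0.258. Ifih1, the cytosolic sensor MDA5, measured 36.2, 42.4, 35.6 and 38.7 CPM with HCl and 43.0, 43.4, 39.9, 38.4 and 44.6 CPM with norepinephrine. It was higher in samples 1, 2 and 3 and level in sample 4 (log2 fold change 0.12, edgeR adjusted p = 0.573). With DMSO it measured 37.6, 41.8, 36.6 and 37.7 CPM and with UK14,304 40.0, 43.4, 37.8, 44.5 and 41.0 CPM (log2 fold change 0.10, edgeR adjusted p = 0.401). Ddx58, the related sensor RIG-I, had 0.03 and 0.11, and the receptor chains Ifnar1 and Ifnlr1 had 0.01 and -0.06 with norepinephrine and -0.03 and -0.10 with UK14,304.

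Further genes of the same pathways were examined as a wider list. It held 103 genes, and 74 were tested. Estimates lay below 0 for 46 of the 74 with norepinephrine (median log2 fold change -0.035), against 52.7% of all genes. With UK14,304 they lay below 0 for 42 of the 74 (median -0.015), against 51.3%. Of the 33 other interferon targets tested, 17 lay below 0 with norepinephrine and 22 with UK14,304. With norepinephrine 0 of 74 passed by edgeR. With UK14,304 1 fell and 0 rose, against 1.04% and 0.177% of all genes. The gene that fell was Oasl1, an interferon target known to hold back translation of Irf7. It measured 24.5, 48.2, 15.8 and 26.0 CPM with DMSO and 19.9, 30.6, 8.63, 16.9 and 17.5 CPM with UK14,304. Every pair was lower, although sample 2 with UK14,304 was above 3 of the vehicle samples. Oasl1 fell by 0.59 on the log2 scale (SE 0.11, 95% interval -0.82 to -0.36), a change of -33.6%, with an edgeR adjusted p of 0.00926, and without the block the adjusted p was 0.56. With norepinephrine it measured 20.3, 30.9, 11.4, 29.2 and 20.9 CPM against 24.5, 49.5, 16.1 and 28.3 CPM with HCl. Samples 1, 2 and 3 were lower and sample 4 was not, with a log2 fold change of -0.34 (edgeR adjusted p = 0.556). Of the 18 other interferon signaling genes 0 passed with either agonist, and of the 10 other class I genes tested 0 passed.

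The agonists were also set against each other as the difference of their effects, which were both measured at 1 µM and 4 days. For this difference edgeR called 0 of 15247 genes (0.0%) and 0 of 36 members, and DESeq2 called 1 gene and 0 members. At an unadjusted p under 0.05 stood 2.66% of genes and 1 member, Stat2. The difference was below 0 for 22 of 36 members (61.1%) and 47.4% of genes. The UK14,304 effect on Stat2 was lower than the norepinephrine effect by a log2 difference of -0.25 (95% interval -0.43 to -0.08), with an edgeR adjusted p of 0.9999. The interval of the difference ran from -0.19 to 0.13 for H2-K1, from -0.07 to 0.21 for B2m and from -0.79 to 0.29 for Ifit1. The interval for H2-Eb1 ran from -2.32 to 0.01. These intervals leave room for differences larger than most of the effects themselves. The 2 vehicles were compared as a background, and edgeR called 0 of 36 members and 0 genes (0.0%). The estimate of HCl minus DMSO lay below 0 for 12 of 36 members (33.3%) and for 48.2% of genes. At an unadjusted p under 0.05 stood 0 members and 1.82% of genes, and DESeq2 called 0 members. For Stat2 HCl minus DMSO was 0.04 (95% interval -0.09 to 0.17).

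Without the norepinephrine library numbered 4, members passed in both comparisons. edgeR then called 2529 of 15161 genes (16.7%) with norepinephrine, with 7.55% of genes lower and 9.14% higher, and 8 of 36 members. Lower were H2-K1 (-0.15, adjusted p = 0.0169), H2-D1 (-0.16, adjusted p = 0.00758), H2-T23 (-0.19, adjusted p = 0.0277), Psmb10 (-0.22, adjusted p = 0.0209), Irf7 (-0.34, adjusted p = 0.0224) and Tap2 (-0.36, adjusted p = 0.0301). Erap1 (0.19, adjusted p = 0.00604) and Ifih1 (0.18, adjusted p = 0.0179) were higher. In this fit, whose spread is shared by all groups, UK14,304 gave 1225 genes (8.08%, with 4.27% lower and 3.81% higher) and 6 members. Stat2 (-0.38), H2-K1 (-0.13), H2-D1 (-0.12), H2-Q1 (-0.24) and Ifit1 (-0.60) were lower, and Erap1 (0.14) was higher. The replicate numbers gave 19 members, against 23.6% of all genes.

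With both agonist libraries numbered 4 left out, a setting added after the data had been seen, norepinephrine gave 2738 of 15094 genes (18.1%, with 8.49% lower and 9.65% higher) and 9 members, the 8 above and Stat2 (-0.17, edgeR adjusted p = 0.0265). UK14,304 gave 708 genes (4.69%, with 3.31% lower and 1.38% higher) and 2 members, Stat2 (-0.41, adjusted p = 1.16e-05) and H2-Q1 (-0.30, adjusted p = 0.00901). The number of norepinephrine calls was thus decided by a single library. In that library Psmb10 and H2-K1 were above the HCl sample of the same number, and in the UK14,304 library numbered 4 both were below its DMSO sample. The cause was not tested, and no library was relabeled.

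**Figure D4:**
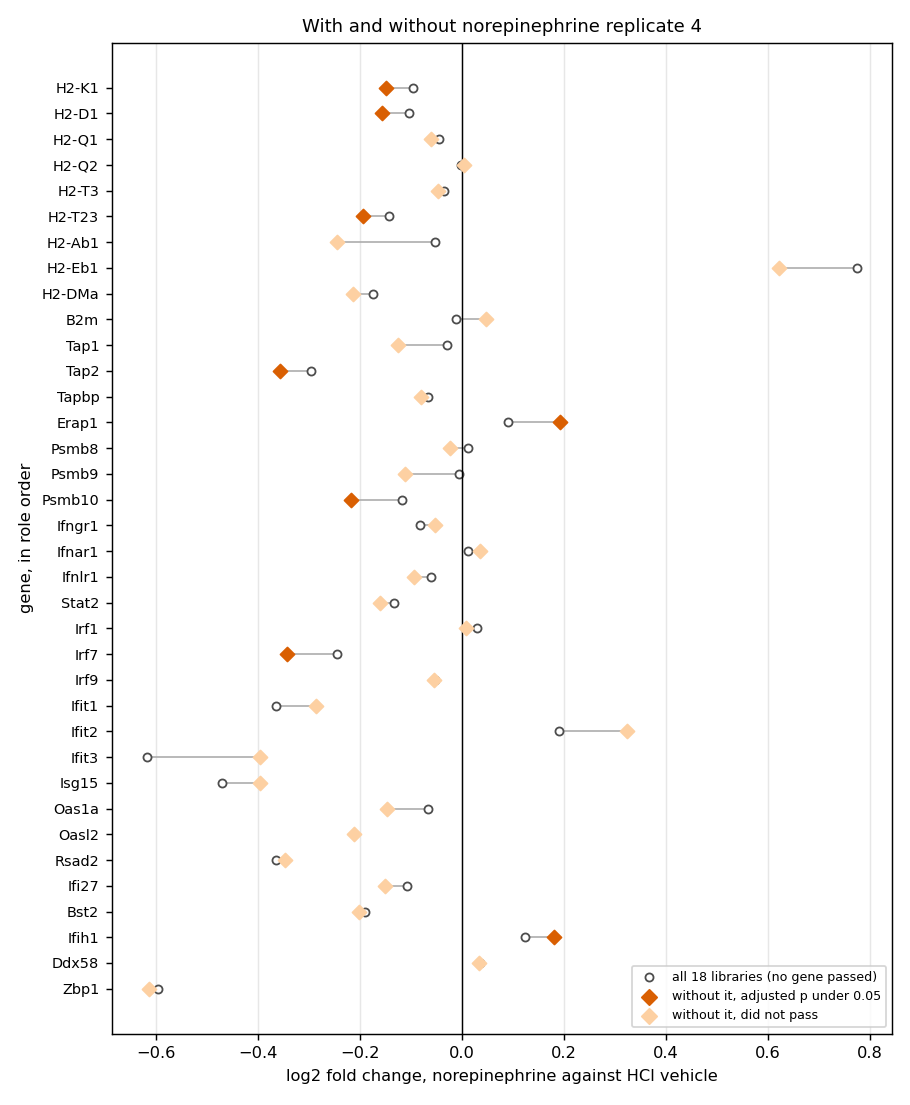
Log2 fold change of the 36 tested members for norepinephrine against HCl, with all 18 libraries (open circles) and without the norepinephrine library numbered 4 (diamonds, dark where the adjusted p is under 0.05), from edgeR fits with the replicate number as a block. In the picture 0 members pass with all libraries and 8 pass without that library, 6 lower and 2 higher.

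More members passed for the replicate number than for either agonist. An F test of the replicate numbers, in the same edgeR model, called 2110 of 15247 genes (13.8%) and 11 of 36 members (30.6%). At an unadjusted p under 0.05 it was 24% of genes and 22 members. DESeq2 called 14 members, a count given here without the share over all genes. Between the highest and the lowest number the median range was 0.33 on the log2 scale over the 36 members and 0.20 over all genes. The median size of the effect over the members was 0.10 for norepinephrine and 0.10 for UK14,304, and the range over numbers exceeded the UK14,304 effect in 35 of 36 members. A range over 5 numbers is wider by construction than a single difference.

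Number 3 was the lowest in 11 of the 11 members that passed, and in 26 of 36 tested members (72.2%) against 28.2% of all genes and 59.2% of the genes that passed. Number 2 was the highest in 9 of the 11 and in 23 of 36 (63.9%), against 24.7% of all genes and 52.5% of those that passed. H2-Q1 had the largest F (15.2, adjusted p = 0.000316). This nonclassical class I chain measured 15.1 and 18.1 CPM in the vehicle samples of number 3 and 20.0 to 25.6 CPM in the other vehicle samples. With UK14,304 it measured 17.8, 21.2, 11.9, 19.6 and 18.3 CPM and with norepinephrine 20.9, 21.9, 16.4, 22.2 and 20.2 CPM, number 3 being the lowest of each group. Ifngr1 (F = 15.1, adjusted p = 0.000333) lay between 283 and 319.8 CPM in the 4 libraries of number 2 and at 279.9 CPM or less in the other 14. Psmb8 (F = 14.4, adjusted p = 0.000444), the chymotrypsin-like immunoproteasome subunit, lay between 3.39 and 4.32 CPM in the libraries of number 3 and between 4.89 and 7.54 CPM in all others. H2-Q2 (F = 14.1, adjusted p = 0.000478) lay between 111 and 134 CPM in number 3 and between 142 and 163 CPM elsewhere.

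All 4 libraries of number 3 lay below all 14 others in 3 of 36 members (H2-Q2, H2-T3 and Psmb8), as in 3.16% of all genes, and all libraries of number 2 lay above the others in 1 member (Ifngr1), as in 2.15% of all genes. The others that passed were Oasl2, Stat2, H2-K1, Tapbp, H2-D1, Ifi27 and Irf1. Ifi27 measured 9.79, 11.4, 8.39 and 8.66 CPM with HCl and 10.3, 12.0, 7.40 and 10.3 CPM with DMSO. It measured 9.04, 9.37, 8.27, 9.50 and 9.21 CPM with norepinephrine and 10.5, 9.01, 7.23, 7.93 and 11.2 CPM with UK14,304, lowest in number 3 in each group. Among the wider pathway genes 19 of 74 passed, against 13.8% of all genes. Oasl1 had the F of 50.6 (adjusted p = 4.04e-07), from 8.63 to 16.1 CPM in number 3 to between 30.6 and 49.5 CPM in number 2.

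Leaving out number 3 reduced the calls to 0 of 36 members and 545 genes, and leaving out number 2 reduced them to 4 members and 808 genes. Without number 4 there were 25 members and 4459 genes. Leaving out a single library gave 7 members without HCl sample 2 (1589 genes), HCl sample 3 (1632 genes) or DMSO sample 3 (1531 genes), 19 without norepinephrine sample 4 (3581 genes) and 21 without UK14,304 sample 4 (3189 genes). Cell markers also moved with the number. Enterocyte markers (6 genes) summed to between 11990 and 13580 CPM in number 3 and between 13610 and 15930 CPM in the others. By fitted level Alpi, Fabp1, Apoa1 and Apoa4 were lowest in number 3. Lct was instead highest in number 3, and Lct and Sis were lowest in number 2. Stem cell markers (4 genes) summed to between 4385 and 5563 CPM in number 3 and between 2977 and 3616 CPM in number 2. Most of that sum was Olfm4 (mean 3609 CPM, against 190.9 CPM for Lgr5). Olfm4, Smoc2 and Ascl2 were highest in number 3 and lowest in number 2, whereas Lgr5 was highest in number 4 and lowest in number 1. Immune markers summed to between 5.56 and 5.91 CPM in number 3 and to at most 5.10 CPM in the others, with Adgre1 and Nkg7 at 0. The part of these cell types in the differences between numbers was not tested, and in bulk RNA fewer cells of a type and less RNA per cell cannot be told apart.

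**Figure D5:**
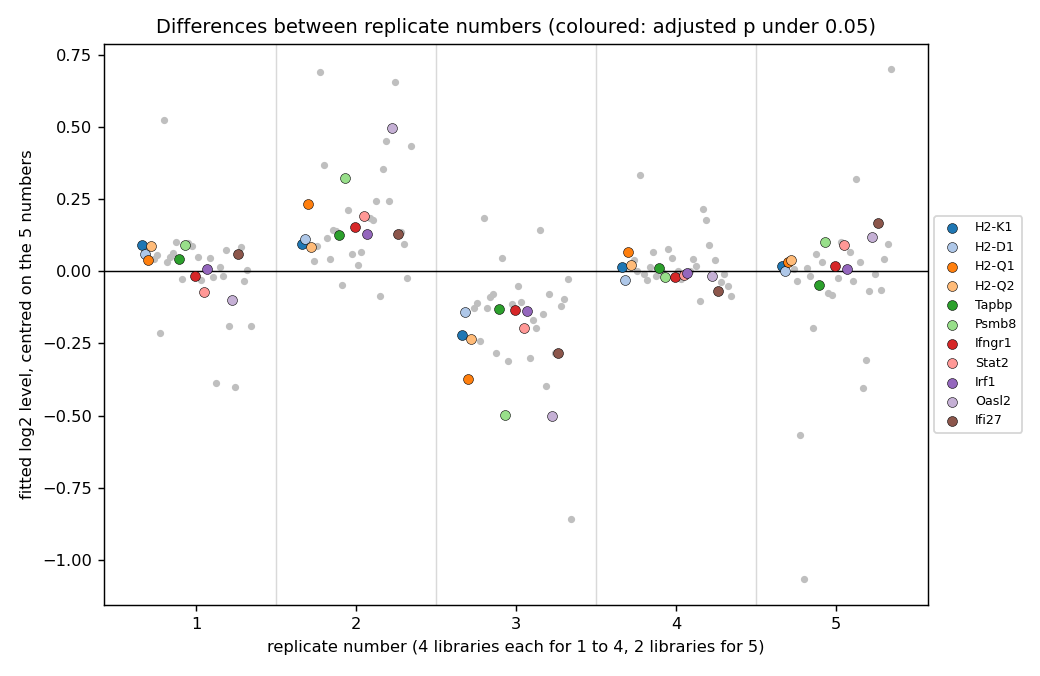
Fitted level of the 36 tested members by replicate number, on the log2 scale and centered on each member's mean over the 5 numbers, with the 11 members that passed the F test in color and the others in gray. Of the 11, number 3 is the lowest in 11 of 11 and number 2 the highest in 9 of 11.

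Markers of Paneth cells moved with the agonists as well. The 4 markers summed to between 2335 and 3552 CPM with HCl and between 1913 and 2655 CPM with norepinephrine, and to between 2219 and 3422 CPM with DMSO and between 1943 and 2878 CPM with UK14,304. Lyz1, the Paneth cell lysozyme, fell by 0.37 on the log2 scale with norepinephrine (edgeR adjusted p = 0.0019) and by 0.31 with UK14,304 (edgeR adjusted p = 0.0031). Ang4, an antimicrobial ribonuclease, fell by 0.27 with UK14,304 (edgeR adjusted p = 0.022) and had -0.29 with norepinephrine (edgeR adjusted p = 0.0702). By edgeR, Mmp7 had adjusted p of 0.0563 with norepinephrine and 0.0685 with UK14,304, and Defa24 had 0.556 and 0.0978. By DESeq2, Mmp7 had 0.00231 and 0.0299, Defa24 had 0.358 and 0.0272, and Ang4 with norepinephrine had 0.00441. Without the block the edgeR adjusted p of Lyz1 was 0.713 with norepinephrine and 0.508 with UK14,304, and that of Ang4 with UK14,304 was 0.543. Immune markers summed to between 3.73 and 5.82 CPM with DMSO and between 3.66 and 5.70 CPM with UK14,304. Whether a change in Paneth cells took part in the lower Stat2 was not tested.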

How the data were processed

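Organoid RNA was sequenced as 50-base single-end reads from libraries made with an mRNA kit. Per the submitters' processing notes, the authors used FastQC 0.11.8, MultiQC 1.7, STAR 2.7.3, SAMtools 1.9 and Subread 1.6.4 on GRCm38. The deposited table holds raw counts per gene, made with featureCounts, whose version in the header is 2.0.1, over exons of Ensembl release 102, with no strand setting recorded. The 18 columns were matched to samples by title.

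The 43 members and the wider lists were chosen with earlier results of these data known. Gene identifiers were matched to gene symbols (55141 of 55487), and listed symbols not found were looked up through RefSeq synonyms. Counts were filtered with filterByExpr, scaled by TMM and fitted in edgeR 4.0.16 (R 4.3.3) by quasi-likelihood, with 4 groups and the replicate number as a block, and p-values were adjusted by Benjamini-Hochberg over all genes tested at a threshold of 0.05. Number 5 has no vehicle sample. In the fit of all 4 groups it informs an agonist against its vehicle through the difference between its norepinephrine and UK14,304 samples and through the spread. The number was used as a block because the deviations of same-numbered agonist and vehicle samples from their group means correlated, across genes, at 0.119 to 0.431 for norepinephrine and 0.155 to 0.52 for UK14,304 in the 4 pairs of each, against means of -0.07 and -0.086 for unequal numbers. Over all 25 same-numbered pairs of the 4 groups the correlation ran from -0.212 to 0.52, the lowest being that of the norepinephrine and UK14,304 samples numbered 4. The labels themselves do not say what the number marks. CPM and RPKM were computed from the deposited counts with TMM-scaled library sizes, and a count of 0 was taken to allow 3 counts, for counting error only. The test of UK14,304 against DMSO was also run on simulated counts. The changes set there were larger than most member effects and lay in well-counted genes, so small effects and low counts were not checked.

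Values in every sample were given for members past the threshold, for the 4 largest changes in each agonist comparison, for the highest member of each role and for the 4 largest F values. Alternatives were DESeq2 1.42.0, no block, other filters and scalings, GC and ribosomal RNA terms, fits of each agonist with its own vehicle alone, and leaving out each library or number. Promoters came from a RefSeq table on GRCm38.p6. No sample column was left unused.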

Additional observations from a re-analysis of the deposited data

Results flagged for a closer look

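Of 84 groups of 4 or 5 samples examined for 21 members, 3 held a sample that stood apart from the others by Dixon's criterion, and chance alone gives about 1 in 20. H2-Q2 was low in the sample numbered 3 of both agonist groups. It measured 134 CPM in norepinephrine sample 3 against 145 to 149 CPM in the other norepinephrine samples, and 111 CPM in UK14,304 sample 3 against 145 to 148 CPM in the other UK14,304 samples. The vehicle samples numbered 3 were the lowest of their groups as well, at 116 and 125 CPM. H2-Ab1 was high in UK14,304 sample 2, at 1.40 CPM against 0.366 to 0.645 CPM in the others. The causes were not tested.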

How the results depend on the processing

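The replicate block decided the calls: without it norepinephrine gave 0 genes and UK14,304 gave 6 genes and 0 members, and the calls of Stat2, Oasl1, Lyz1 and Ang4 were lost. With no filter on low counts norepinephrine gave 153 genes, and UK14,304 gave 627 genes and 2 members (Stat2 and Ifit1). In that fit the difference of the effects gave 24 genes, the vehicles 17 genes and the replicate numbers 21 members. The 21 members are given without the share over all genes in that fit. DESeq2 gave 29 genes with norepinephrine and 1 for the difference, as did a minimum of 10 counts for the difference. With the GC trend removed the counts were 31 genes for norepinephrine, 626 genes and 2 members for UK14,304, and 3701 genes and 21 members for the numbers. A ribosomal RNA term left 78 genes with UK14,304, and a fit with its own vehicle alone gave 525 genes and 2 members. Without both agonist libraries numbered 4 (added after the data had been seen) the counts were 2738 genes and 9 members for norepinephrine, 708 genes and 2 members for UK14,304, 26 genes for the difference and 4264 genes and 25 members for the numbers. Leaving out a library or a number gave 4 to 2529 genes and 0 to 8 members with norepinephrine, 23 to 1225 genes and 0 to 6 members with UK14,304, 0 to 12 genes for the difference, and 545 to 4459 genes and 0 to 25 members for the numbers. The median log2 fold change of the members then ranged from -0.14 to -0.00 with norepinephrine and from -0.10 to -0.06 with UK14,304. Among the agonist effects of the tested members whose values are given in every sample, 1173 values kept their direction and side of the threshold, 67 changed sign without a call, 23 gained a call and 3, all of Stat2 with UK14,304, lost it. The causes were not tested. Members under about 1 CPM rest on few reads, which limits what can be seen of class II genes.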
